A study of Homo sapiens with 9 samples.

Results

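The subject here is 10 genes that make, break down or bind hyaluronan, taken by symbol from a table of 19389 genes measured in SW1353 cells. They are the synthases HAS1, HAS2 and HAS3, the precursor enzyme UGDH, the hyaluronidases HYAL1 and HYAL2, the receptors CD44 and HMMR, the secreted binder TNFAIP6 and the proteoglycan VCAN. All 10 had a row. SW1353 is an established human chondrosarcoma line, derived from a cartilage tumour and widely cultured as a model of chondrocytes. The first group of 3 libraries received PBSL, made from Protaetia brevitarsis seulensis beetle larvae, for 2 h and then interleukin-1β (IL-1β) at 20 ng/mL for 20 h. The second group of 3 received the same IL-1β exposure without PBSL, and the third group of 3 was left untreated. No group received PBSL alone. The protocol lists PBSL concentrations between 50 and 200 µg/mL without saying which was sequenced, and nothing says that replicates came from separate cultures, so every p-value below measures only the spread between these libraries.

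Hyaluronan is a long unsulfated sugar chain made at the plasma membrane by the HAS enzymes, which join UDP-glucuronic acid and UDP-N-acetylglucosamine and push the growing chain out of the cell. In cartilage it is the backbone on which aggrecan or versican and link protein assemble, and CD44 tethers it to the cell surface. Hyaluronidases and the binding protein CEMIP shorten the chains. TNFAIP6, also called TSG-6, transfers heavy chains of inter-α-inhibitor onto hyaluronan and is a textbook product of inflamed joints.

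The values were normalized by the authors for transcript length and depth, so levels of different genes can be set side by side, but how many reads lie behind a value is unknown. They summed to between 523758 and 553196 per library, and between 11562 and 11727 genes reached 1. Of 8 chondrocyte markers, 5 reached 1 in some library. SOX9, a chondrocyte transcription factor, ran from 8.003 to 12.8 over the libraries, while COL2A1, the defining collagen of cartilage, did not exceed 0.027. Of 6 mesenchymal markers, 5 reached 1, with VIM the highest at up to 3403, and THY1 did not exceed 0.101. Of 7 leukocyte and macrophage markers, CD68 (68.04 to 97.02), CSF1R (2.69 to 3.81) and CD3E (0.61 to 1.33) reached 1 in some library and the pan-leukocyte gene PTPRC did not exceed 0.393. None of 6 endothelial markers reached 1, with KDR the highest at 0.991, while the epithelial markers KRT5, KRT14 and CLDN4 did, at up to 3.24, 1.93 and 4.72, and EPCAM did not exceed 0.489. The part of other cell types in the results was not tested. PBSL replicate 1 lay between the other PBSL libraries and IL-1β alone on the second principal component, at 0.578, with 16.8 and 18.2 in the other PBSL libraries and -12.4 to -11.5 with IL-1β. Genes were tested when they reached a value of 1 in at least 3 libraries, which 11924 genes and 9 of the 10 did. Fold changes are on the log2(value + 1) scale, which understates changes of low genes.

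RefSeq promoter entries (GRCh38.p14) matched 9 of the 10 genes, all but HAS2. With PBSL, as given below, TNFAIP6 was lower and HMMR higher beside mitotic genes, while IL-1β alone raised both. A pair of stretches are shown because the genes behind them moved in these ways. They are the 250 bases before the TNFAIP6 start (chr2:151357342-151357591, plus strand) and a 30-base stretch shortly before the HMMR start (chr5:163460596-163460625, plus strand), 5′ to 3′, with capitals for motif matches on either strand.
TNFAIP6: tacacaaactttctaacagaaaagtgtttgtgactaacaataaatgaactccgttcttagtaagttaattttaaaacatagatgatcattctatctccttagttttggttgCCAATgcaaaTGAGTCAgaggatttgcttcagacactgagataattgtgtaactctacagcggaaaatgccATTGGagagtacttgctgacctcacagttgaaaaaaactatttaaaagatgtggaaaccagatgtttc
HMMR: tggggagaTTTGAATTTGAAaccggtaggg
The TNFAIP6 stretch holds the AP-1 motif TGANTCA at -129 to -123 from the start and the CCAAT box in the forward direction at -139 to -135 and in reverse at -68 to -64. The HMMR stretch was cut around the cell cycle homology motif TTTGAA, so its presence there was fixed by the choice. The motif lies at -28 to -23 and again at -22 to -17, side by side and without overlap. The 250 bases before the HMMR start also hold CCAAT box matches between -177 and -62, which the cut leaves out. Over the 250 bases before each of 27305 starts, TGANTCA was present in 6.6%, TTTGAA in 13.6% and CCAAT in 33%. An NF-κB motif (3 G, 5 of any base, 2 C), present in 53.7%, and the TATA motif TATAAA, present in 11.1%, had no match in the TNFAIP6 window. In GENCODE 29 the HMMR stretch also lies in the first exon of another HMMR transcript. A match describes letters and not a bound site.

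IL-1β alone raised HAS2, TNFAIP6, CD44 and HMMR and lowered HYAL1 and HYAL2, by limma with Benjamini-Hochberg adjustment over all tested genes. HAS3, UGDH and VCAN were not called and HAS1 was not tested. The 6 calls among 10 genes stand beside 32.1% of all tested genes called in this comparison, which are 16.2% higher and 16% lower. The groups' values were without overlap for 9 of the 9 tested genes, and likewise for 52.8% of all tested genes. HYAL1 passed the filter only through the untreated libraries and TNFAIP6 almost only through those given IL-1β, so the filter itself favoured a difference in both, and the counts only describe these genes.

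**Figure D1:**
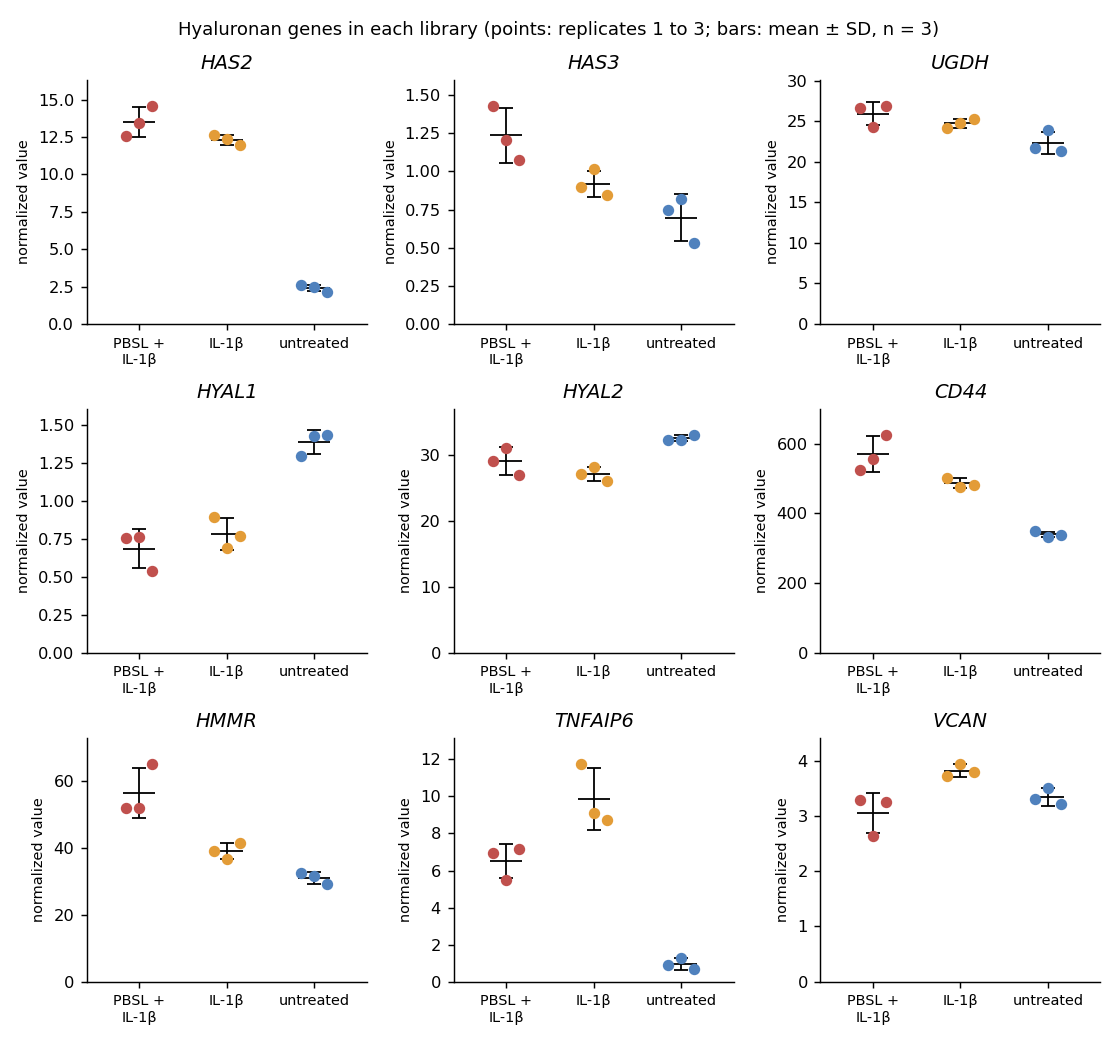
Normalized values (linear axes from 0) of the 9 tested genes in every library, with PBSL plus IL-1β on the left, IL-1β in the middle and untreated cells on the right; bars are the mean ± SD of 3 libraries. HAS2 and TNFAIP6 are low in untreated cells and high in both groups given IL-1β, HYAL1 runs the other way, and CD44 and HMMR are highest with PBSL.

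HAS2 held most of the synthase signal in every library and was the member with the smallest p after IL-1β. Its values were 12.6, 12.4 and 11.9 with IL-1β and 2.58, 2.48 and 2.14 in untreated cells, so the lowest IL-1β library stood far above the highest untreated one. The fitted log2 fold change was 1.97 (SE 0.0732, adjusted p = 1.98e-09), and the ratio of the group means was 5.13. In bulk RNA more cells that transcribe a gene and more of its RNA per cell cannot be told apart, here and below. The gene lies on chromosome 8 (hg38, 121612116 to 121641390, minus strand), and HAS2-AS1 overlaps it on the other strand. The kit was directional, but whether strand was used in counting is not stated.

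HAS3, which makes hyaluronan at the plasma membrane like HAS2, was low in all groups. It had 0.896, 1.01 and 0.844 with IL-1β and 0.745, 0.82 and 0.528 in untreated cells, and a log2 fold change of 0.18 (95% interval -0.03 to 0.39, adjusted p = 0.187). The groups just failed to overlap, but the difference was not called. HAS1 was listed at 0 in 8 libraries and at 0.03 in IL-1β replicate 3. HAS2 thus held 93.4%, 92.4% and 93.2% of the summed HAS1, HAS2 and HAS3 values with IL-1β, against 77.6%, 75.1% and 80.2% in untreated cells. The ratio of HAS2 to HAS3 ran from 12.2 to 14.1 with IL-1β and from 3.02 to 4.06 in untreated cells, with no overlap. These shares are given as a description and were not tested; the smallest p of an exact permutation test of 3 against 3 libraries is 0.1.

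**Figure D2:**
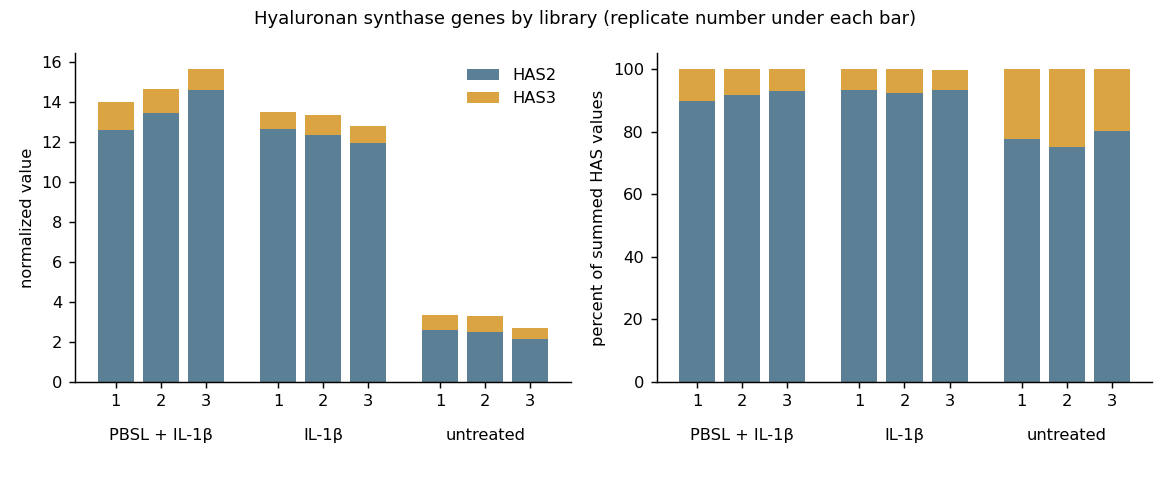
HAS2 and HAS3 values in each library (left, stacked bars) and their percent of the summed HAS1, HAS2 and HAS3 values (right), for PBSL plus IL-1β, IL-1β and untreated cells from left to right. The HAS2 share is 75.1% to 80.2% in untreated libraries and at least 89.8% in all 6 libraries given IL-1β.

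UGDH, which oxidizes UDP-glucose to UDP-glucuronic acid, changed little. It had 24.2, 24.8 and 25.2 with IL-1β and 21.7, 23.9 and 21.3 in untreated cells. The log2 fold change of 0.14 was not called (SE 0.0612, adjusted p = 0.0941), although it was without untreated replicate 2 (adjusted p = 0.0442) and in 2 other settings (lowest adjusted p = 0.0306). The genes around it were less even. Of 19 tested genes that supply or use the UDP sugars, among 20 listed, 9 rose with IL-1β and none fell, with a median log2 fold change of 0.145 beside -0.0049 over all tested genes, of which 16.2% were higher and 16% lower. They included GFPT2, an enzyme of the first, rate-limiting step of the hexosamine pathway, at 11.5 ± 0.382 with IL-1β and 2.05 ± 0.099 in untreated cells (SD, n = 3 each; log2 fold change 2.04, adjusted p = 5.95e-10 by limma). PGM3, a later step of that pathway, averaged 33.04 ± 0.569 with IL-1β and 19.4 ± 0.65 in untreated cells. The hexokinase HK2 averaged 6.66 ± 0.287 with IL-1β and 3.75 ± 0.101 in untreated cells. SLC35D1, a nucleotide-sugar transporter, averaged 5.39 ± 0.396 with IL-1β and 3.999 ± 0.511 in untreated cells. These 4 genes kept their calls under every alternative processing tried, while the calls of the other 5 were lost in some.

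The hyaluronidases moved the opposite way to HAS2. HYAL1, a lysosomal hyaluronidase, had 0.893, 0.688 and 0.769 with IL-1β and 1.30, 1.43 and 1.44 in untreated cells, which gave a log2 fold change of -0.42 with SE 0.0894 (adjusted p = 0.00337). Every IL-1β library was below every untreated one, at levels near 1. HYAL2, a hyaluronidase anchored to the cell surface, had 27.2, 28.2 and 26.1 with IL-1β and 32.4, 32.3 and 33.1 in untreated cells, a log2 fold change of -0.25 with SE 0.0597 (adjusted p = 0.00661). It stood more than an order of magnitude above HYAL1 in each group. HYAL1 (50299889 to 50312381) and HYAL2 (50317790 to 50322906) are neighbours on chromosome 3, both on the minus strand, and TUSC2 overlaps HYAL2 on the same strand, so reads there may be shared.

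Of 8 tested degradation genes, among 10 listed, HYAL1 and HYAL2 fell and CEMIP and CEMIP2 rose with IL-1β. Over all tested genes 16.2% were higher and 16% lower. CEMIP, a secreted or membrane-bound protein needed for hyaluronan depolymerization in skin fibroblasts, averaged 15.2 ± 0.0792 with IL-1β and 7.23 ± 0.2998 in untreated cells (SD, n = 3 each; log2 fold change 0.98, adjusted p = 1.02e-05 by limma). CEMIP2, a related cell-surface protein, averaged 13.5 ± 0.335 with IL-1β and 8.69 ± 0.506 in untreated cells. HYAL3 and the lysosomal enzymes HEXA and GUSB, which act on short chains, were not called. The sperm hyaluronidase SPAM1 and HYAL4 were listed at 0 in every library.

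CD44, the main hyaluronan receptor, was the most abundant of the 10 genes. Its values were 503, 474 and 482 with IL-1β and 348, 332 and 338 in untreated cells, a log2 fold change of 0.52 with SE 0.0625 (adjusted p = 5.86e-05). The groups were well apart, and the ratio of means was 1.43. The table has 1 value per gene, so the CD44 splice variants were not separated. HMMR, also called RHAMM, binds hyaluronan and spindle microtubules. It had 39.015, 36.8 and 41.5 with IL-1β and 32.6, 31.6 and 29.2 in untreated cells, a log2 fold change of 0.32 with SE 0.0859 (adjusted p = 0.0135). The groups did not overlap, but the call was lost without untreated replicate 3 (adjusted p = 0.0579) and without IL-1β replicate 3 (adjusted p = 0.0619), in a range of 0.00146 to 0.0619.

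Only 5 of 10 listed receptor genes were tested. TLR4, which can respond to hyaluronan fragments, fell to 9.69 ± 0.0606 with IL-1β, against 12.4 ± 0.923 in untreated cells (SD, n = 3 each; limma adjusted p = 0.0036). ICAM1, an adhesion receptor reported to bind hyaluronan, averaged 14.7 ± 1.00 with IL-1β and 0.336 ± 0.192 in untreated cells, and passed the filter only through the libraries given IL-1β. The endothelial clearance receptors LYVE1 and STAB2 reached at most 0.122 and 0.015 in any library.

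TNFAIP6 had the largest fitted change of the 10 genes. It stood at 11.8, 9.08 and 8.74 with IL-1β and at 0.876, 1.29 and 0.693 in untreated cells, a log2 fold change of 2.48 with SE 0.135 (adjusted p = 7.28e-08) and a ratio of means of 10.3. The groups lay far apart, and IL-1β replicate 1 was the highest library. Genes of the inter-α-inhibitor family were scarce: ITIH1 to ITIH5 and AMBP, the light chain, reached at most 0.903 in any library (ITIH5) and were not tested. VCAN, which encodes the large hyaluronan-binding proteoglycan versican, had 3.72, 3.95 and 3.79 with IL-1β and 3.31, 3.51 and 3.21 in untreated cells. Its groups did not overlap, yet the log2 fold change of 0.15 was not called (95% interval -0.02 to 0.32, adjusted p = 0.178).

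Among 9 tested matrix and secreted binders of 24 listed, TNFAIP6, PTX3 and ACAN rose and HAPLN1 and HABP4 fell. These calls stand beside 32.1% of all tested genes called, 16.2% higher and 16% lower. HABP4 is named to complete the count, with its values seen. PTX3, a pentraxin that with TSG-6 stabilizes the hyaluronan matrix around the mouse oocyte, averaged 2.91 ± 0.0507 with IL-1β and 0.17 ± 0.0993 in untreated cells (SD, n = 3 each; limma adjusted p = 8.17e-08). ACAN, or aggrecan, averaged 1.43 ± 0.201 with IL-1β and 0.501 ± 0.0503 in untreated cells. HAPLN1, the link protein that fixes aggrecan to hyaluronan, averaged 0.518 ± 0.122 with IL-1β and 2.28 ± 0.577 in untreated cells (log2 fold change -1.10, adjusted p = 0.000213). PTX3 and ACAN passed the filter only through the libraries given IL-1β and HAPLN1 only through the untreated ones, so the filter favoured their calls; the 5 calls were kept under the alternatives tried, the one with no filter included.

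In cells given IL-1β, PBSL was associated with higher CD44 and HMMR and lower TNFAIP6 and VCAN, while HAS2, HAS3, UGDH, HYAL1 and HYAL2 were not called. The 4 calls among 10 genes stand beside 22.5% of all tested genes called, 11.5% higher and 11% lower. After upper-quartile rescaling the 1370 higher and 1314 lower genes became 958 and 1743, and the 3 members called there were HMMR, TNFAIP6 and VCAN. The groups did not overlap for 5 of the 9 tested genes, against 41.8% of all tested genes. The call of HMMR was the only one of the 4 kept under all 20 alternatives.

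**Figure D3:**
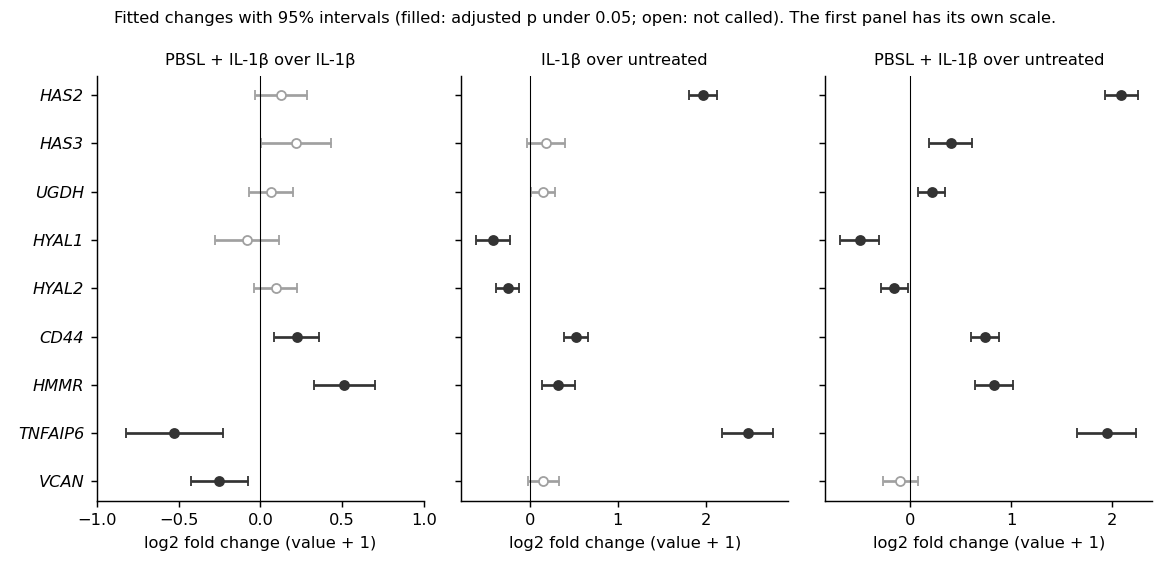
Fitted log2 fold changes (value + 1) with 95% intervals for the 9 tested genes; filled points have an adjusted p under 0.05 and open points do not. With PBSL (left panel, on its own scale) HMMR and CD44 lie right of 0 and TNFAIP6 and VCAN left of it, and HAS2 reaches from -0.03 to 0.29; in the other panels, where untreated cells are the comparison, HAS2 and TNFAIP6 lie farthest to the right.

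HMMR had 52.1, 52.1 and 65.2 with PBSL plus IL-1β and 39.015, 36.8 and 41.5 with IL-1β alone. All PBSL libraries were above all IL-1β libraries, with a log2 fold change of 0.51 with SE 0.0859 (adjusted p = 0.00402, in a range of 0.000947 to 0.02 over the alternatives). Of 16 listed G2/M genes and mitotic partners of HMMR, such as TPX2 and AURKA, 13 had a row and were tested. With PBSL 11 of them rose and none fell. BRCA1 and DYNLL1, named to complete the count, were not called. The median log2 fold change of the 13 genes was 0.445, beside 0.00794 over all tested genes, of which 11.5% were higher. CCNB1, or cyclin B1, averaged 230 ± 22.3 with PBSL plus IL-1β and 155 ± 4.96 with IL-1β (SD, n = 3 each; limma adjusted p = 0.00268). PLK1, a mitotic kinase, averaged 111 ± 11.2 with PBSL plus IL-1β and 75.7 ± 1.28 with IL-1β. NUSAP1, a spindle protein, averaged 80.5 ± 8.18 with PBSL plus IL-1β and 56.3 ± 0.999 with IL-1β. DYNLL1 reached 570 in its highest library and so weighs heavily in a sum over the list. The summed value of the 13 genes was 1449 to 1637 with PBSL plus IL-1β, 1215 to 1232 with IL-1β and 1138 to 1254 in untreated cells. Their mean log2(value + 1), which weighs the genes more evenly, was 6.195 to 6.456 with PBSL plus IL-1β. It was 5.903 to 5.937 with IL-1β and 5.702 to 5.878 in untreated cells, without overlap. The part of these genes in the HMMR result was not tested. With IL-1β against untreated cells, where HMMR rose, AURKA was the only one of the 13 called, and its call was lost without untreated replicate 3 or IL-1β replicate 1, at adjusted p up to 0.0587. Among the 11 of these genes with a promoter entry, TTTGAA was present in 5 and CCAAT in 9. Over all 27305 starts the shares were 13.6% and 33%. Whether these motifs act in HMMR or the listed genes was not tested.

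**Figure D4:**
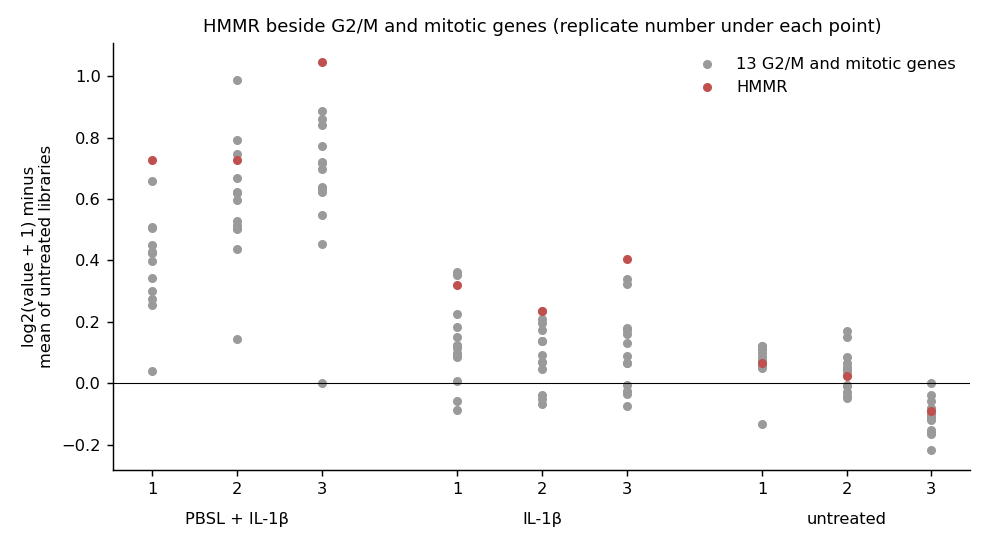
Log2(value + 1) minus the mean of the 3 untreated libraries for HMMR (red) and 13 G2/M genes and mitotic partners of HMMR (grey) in each library, with PBSL plus IL-1β, IL-1β and untreated cells from left to right. HMMR and most grey points are highest in the PBSL libraries, and the grey points of PBSL replicate 1 lie lower than those of replicates 2 and 3.

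TNFAIP6 was lower with PBSL but far from its untreated level. It had 6.96, 5.46 and 7.14 with PBSL plus IL-1β and 11.8, 9.08 and 8.74 with IL-1β alone, and every PBSL library was below every IL-1β library. The log2 fold change was -0.53 (SE 0.135, adjusted p = 0.0183). The call was lost without IL-1β replicate 1, the highest library (adjusted p = 0.0746), without PBSL replicate 2 (adjusted p = 0.0759) and with no filter on low values (adjusted p = 0.0554), in a range of 0.00769 to 0.0759.

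CD44 was higher and VCAN lower with PBSL, both by small amounts. CD44 had 524, 557 and 625 with PBSL plus IL-1β and 503, 474 and 482 with IL-1β, without overlap, for a log2 fold change of 0.22 with SE 0.0625 (adjusted p = 0.0262). Its call was lost without any single IL-1β replicate (adjusted p = 0.0546, 0.1 and 0.0851 for replicates 1, 2 and 3), without PBSL replicate 2 (0.0562) or 3 (0.0572), with upper-quartile scaling (0.0639) and in 2 other settings, in a range of 0.00393 to 0.1. VCAN had 3.29, 2.64 and 3.25 with PBSL plus IL-1β and 3.72, 3.95 and 3.79 with IL-1β, for a log2 fold change of -0.25 with SE 0.0797 (adjusted p = 0.042). PBSL replicate 2 was the lowest library, and the call was lost without any single library except PBSL replicate 1, with the highest adjusted p, 0.133, without PBSL replicate 2. SUSD5, another gene with a hyaluronan-binding domain, averaged 6.10 ± 0.935 with PBSL plus IL-1β and 7.64 ± 0.288 with IL-1β (limma adjusted p = 0.03), and C1QBP 130 ± 3.32 with PBSL plus IL-1β and 117 ± 1.48 with IL-1β (adjusted p = 0.0395). Neither of these calls held in all alternatives.

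HAS2 did not differ detectably between the groups given IL-1β. It had 12.6, 13.4 and 14.6 with PBSL plus IL-1β and 12.6, 12.4 and 11.9 with IL-1β, and the groups overlapped. The log2 fold change was 0.13 with a 95% interval of -0.03 to 0.29 (adjusted p = 0.239), an interval that holds 0 and also increases of that size. HAS3 had 1.43, 1.21 and 1.07 with PBSL plus IL-1β and 0.896, 1.01 and 0.844 with IL-1β, without overlap, and its log2 fold change of 0.22 was not called (adjusted p = 0.127). The HAS2 share of the summed synthase values was 89.8%, 91.8% and 93.1% with PBSL plus IL-1β, beside 93.4%, 92.4% and 93.2% with IL-1β.

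UGDH had 26.6, 24.3 and 26.9 with PBSL plus IL-1β and 24.2, 24.8 and 25.2 with IL-1β (log2 fold change 0.07, adjusted p = 0.473). HYAL1 had 0.756, 0.764 and 0.541 with PBSL plus IL-1β and 0.893, 0.688 and 0.769 with IL-1β (log2 fold change -0.08, adjusted p = 0.547). HYAL2 had 29.2, 31.2 and 27.0 with PBSL plus IL-1β and 27.2, 28.2 and 26.1 with IL-1β (log2 fold change 0.09, adjusted p = 0.283). The libraries of the groups overlapped for all 3 genes, although HYAL2 was called higher once a dependence on transcript length and GC was fitted and subtracted (adjusted p = 0.0185).

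Of the 19 sugar-supply genes, 3 rose and 1 fell with PBSL, a share close to the 22.5% of all tested genes called. OGT, which transfers N-acetylglucosamine from the UDP sugar to proteins, fell to 32.6 ± 2.30 with PBSL plus IL-1β, against 44.03 ± 0.366 with IL-1β (SD, n = 3 each; log2 fold change -0.43, limma adjusted p = 0.0107), and its call held in every alternative. AMDHD2, which removes the acetyl group from N-acetylglucosamine phosphate, averaged 15.5 ± 3.91 with PBSL plus IL-1β and 10.3 ± 0.676 with IL-1β, but was not called without IL-1β replicate 3 or with no filter (adjusted p up to 0.0722). GNPDA1 and GNPNAT1, which act on glucosamine phosphates, were also higher, and their calls were lost in 5 and 10 of the 20 alternatives. GFPT2 averaged 10.7 ± 0.722 with PBSL plus IL-1β and 11.5 ± 0.382 with IL-1β and was not called (adjusted p = 0.304). Among the degradation genes, HEXA was the only one called, at 55.5 ± 0.833 with PBSL plus IL-1β and 63.2 ± 1.21 with IL-1β (adjusted p = 0.0327), and 7 of 20 alternatives lost it. ICAM1 averaged 9.84 ± 1.13 with PBSL plus IL-1β and 14.7 ± 1.00 with IL-1β (adjusted p = 0.00646), a call lost with a pseudocount of 0.1 (adjusted p = 0.0869).

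**Figure D5:**
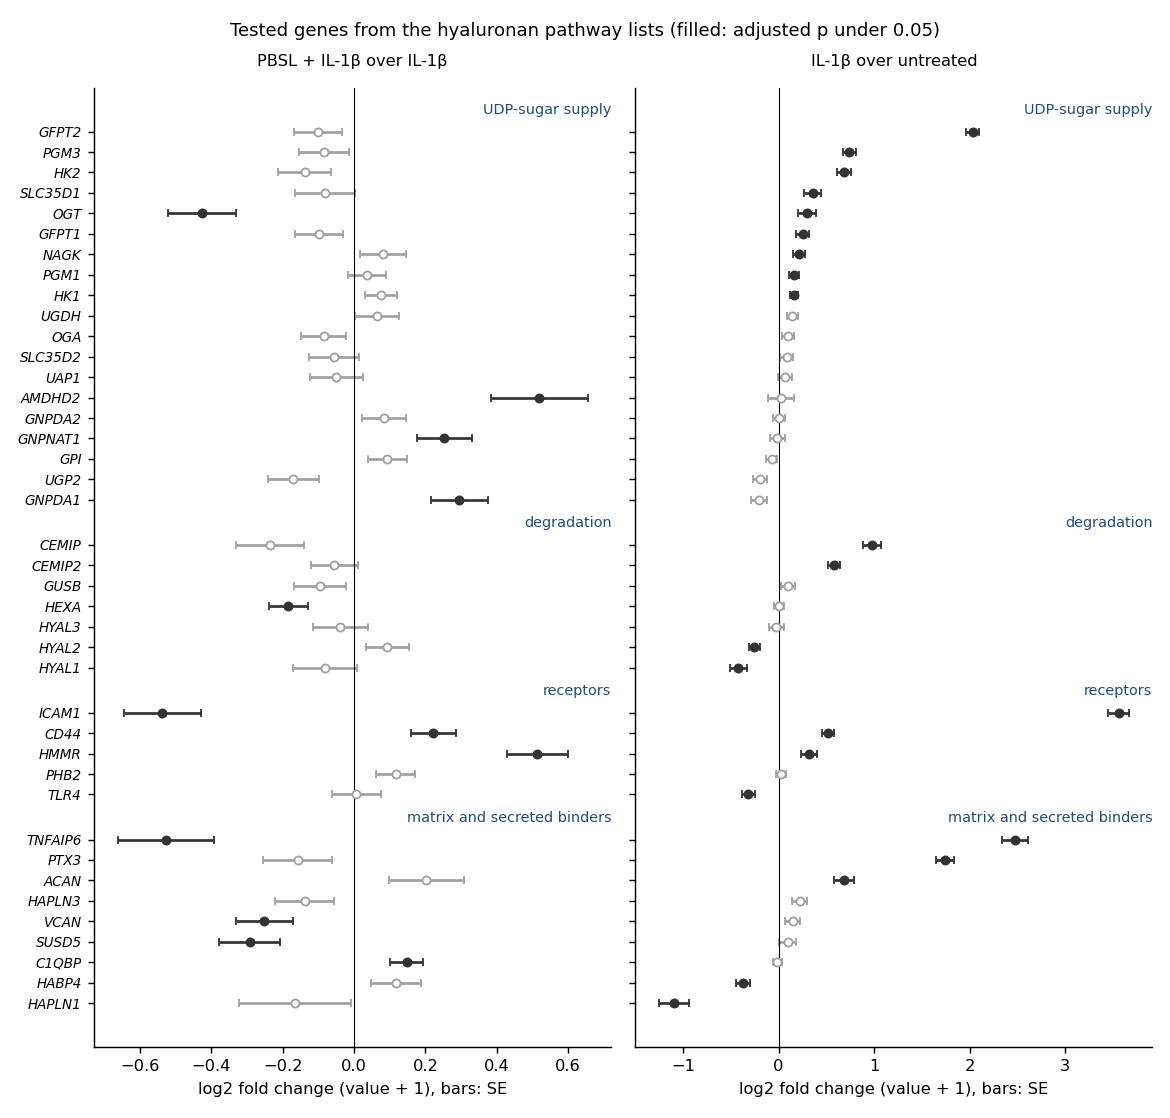
Fitted log2 fold changes (value + 1, bars: SE) of tested genes from the sugar-supply, degradation, receptor and binder lists, for PBSL plus IL-1β over IL-1β (left) and IL-1β over untreated cells (right, on another scale); filled points have an adjusted p under 0.05. On the right GFPT2, PTX3, TNFAIP6 and ICAM1 lie farthest above 0 and HAPLN1 farthest below; on the left ICAM1 and TNFAIP6 lie lowest and AMDHD2 and HMMR highest.

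Set against untreated cells, the PBSL plus IL-1β libraries were higher for HAS2, HAS3, UGDH, CD44, HMMR and TNFAIP6 and lower for HYAL1 and HYAL2. The groups did not overlap for 8 of the 9 tested genes, against 48.2% of all tested genes. The 8 calls stand beside 41.6% of all tested genes called, 22.3% higher and 19.3% lower; upper-quartile rescaling turned 2658 higher and 2307 lower genes into 1795 and 3057. This comparison shares its libraries with the other 2 and adds no independent sample. HAS2 averaged 13.5 ± 1.00 with PBSL plus IL-1β and 2.40 ± 0.228 in untreated cells (SD, n = 3 each; log2 fold change 2.10, limma adjusted p = 1.23e-09). HAS3, not called in the other comparisons, averaged 1.24 ± 0.181 with PBSL plus IL-1β and 0.698 ± 0.152 in untreated cells (log2 fold change 0.40, adjusted p = 0.00665), and reached 1 in all 3 PBSL libraries, 1 IL-1β library and no untreated one, so the filter favoured this call. CD44 averaged 569 ± 51.4 with PBSL plus IL-1β and 339 ± 8.30 in untreated cells, a log2 fold change of 0.74. HMMR averaged 56.5 ± 7.59 with PBSL plus IL-1β and 31.1 ± 1.77 in untreated cells, a log2 fold change of 0.83. TNFAIP6 averaged 6.52 ± 0.921 with PBSL plus IL-1β and 0.953 ± 0.306 in untreated cells, a log2 fold change of 1.95. HYAL1 averaged 0.687 ± 0.127 with PBSL plus IL-1β and 1.39 ± 0.0792 in untreated cells (log2 fold change -0.50, adjusted p = 0.000884). As with IL-1β alone, the filter favoured this call and that of TNFAIP6. The HYAL2 call, with 29.1 ± 2.08 with PBSL plus IL-1β and 32.6 ± 0.461 in untreated cells, lay at the threshold (adjusted p = 0.0499) and was lost in 17 of 20 alternatives. The UGDH call (adjusted p = 0.0166) was lost without untreated replicate 1 (0.0575), without untreated replicate 3 (0.069), with upper-quartile scaling (0.101) and after subtraction of the length and GC dependence (0.0731). VCAN was not called (log2 fold change -0.10, adjusted p = 0.332).

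The genes most like each member over the 9 libraries were found by Pearson's r of log2(value + 1). For HAS2 they were SERPINB2, a plasminogen activator inhibitor (r = 0.999), IL1B, the cytokine gene itself (0.998), and PTGS2, cyclooxygenase 2 (0.998). SERPINB2 averaged 296 with PBSL plus IL-1β, 240 with IL-1β and 3.38 in untreated cells. For TNFAIP6 they were the complement protease C1R (0.993), HSD11B1, which activates cortisone (0.993), and the transcription factor ZEB2 (0.992). C1R averaged 114 with PBSL plus IL-1β, 154 with IL-1β and 31.3 in untreated cells, which is the order that TNFAIP6 showed. VCAN lay closest to the proteoglycan SPOCK1 (0.985), the adhesion molecule ALCAM (0.981) and DCAF5 (0.976), and CD44 to RAB5IF (0.991), the cholesterol transporter NPC1 (0.989) and the calcium pump ATP2B1 (0.988). HYAL1 lay closest to EVA1C (0.994), METTL7B (0.986) and PRDM11 (0.985), and HYAL2 to ALKBH4 (0.982), STX10 (0.977) and RPS6KA1 (0.973). HMMR lay closest to UBQLN1 (0.982), MRPL39 (0.981) and PTP4A2 (0.980), none of them from the mitotic list. HAS3 was closest to RPUSD2 (0.940), ITFG2 (0.937) and TMEM69 (0.931), and UGDH to FAM98A (0.948), FAM91A1 (0.947) and ZNF823 (0.946). With 9 libraries in 3 groups, such values are set mainly by the group means.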

How the data were processed

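RNA was measured in 3 groups of 3 libraries of SW1353 cells. Per the submitters' processing notes, reads were trimmed with Trim Galore, aligned with STAR to hg38 and counted with HTSeq; versions are not given in the sources used here. The signal values deposited by the authors were normalized for depth and transcript length, and the sources used here do not say whether they are FPKM or TPM: over 1710 low genes the smallest value above 0 fell with transcript length (Pearson r of logs -0.745, across genes). They are not counts, so depth is unknown and no count test was run.

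Values were given a pseudocount of 1, log2-transformed and fitted with limma 3.58.1 in R 4.3.3 (trended variance, all 9 libraries, a mean per group), for the 11924 genes that reached 1 in 3 libraries or more. Calls were 2-sided, with Benjamini-Hochberg adjustment over all of these genes and a threshold of 0.05. The procedure was tested on simulated data in which each gene had the same spread in all groups. In the real libraries the SD of deviations from the group means was 0.117 to 0.131 with PBSL plus IL-1β. It was 0.0759 to 0.0808 with IL-1β and 0.0944 to 0.106 in untreated cells. The simulation does not cover this difference in spread. Alternatives changed the pseudocount, filter, scaling, variance model, replicate block and libraries; removal of a length and GC trend was added after seeing the data. All 10 members were named, as were the up to 4 called genes with the smallest p per pathway list and comparison that averaged at least 1 in a group, untested genes where their absence is stated, and the 3 genes most like each member. The members and lists were chosen with earlier results of these data known. 1 listed gene enters the counts but is not reported here by name. Positions come from GENCODE 29. Tables were made with Python 3.11.15 and pandas 2.3.3, and figures with matplotlib 3.10.9.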

Additional observations from a re-analysis of the deposited data

How the results depend on the processing

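Over 20 alternatives no fitted change of a tested member turned its direction. In PBSL plus IL-1β against IL-1β, the 4 called members became 1 with no filter and 2 with only the groups compared in the fit, and 1 to 4 when single libraries were left out, with 1 without IL-1β replicate 1 or PBSL replicate 2 and 2 without IL-1β replicate 2, IL-1β replicate 3 or PBSL replicate 3. The wider pathway list joins all the pathway gene lists used here, and 85 of its genes were tested. It includes the 13 G2/M genes and mitotic partners of HMMR, 11 of them called in this comparison. Its 29 called genes stand beside 22.5% of all tested genes called. The 29 became 16 (without IL-1β replicate 3) to 36 (without PBSL replicate 1). They became 18 and 19 without IL-1β replicates 1 and 2 and 19 without PBSL replicate 2. Over all tested genes 2684 became 1314 (without IL-1β replicate 2) to 3904 (without PBSL replicate 1), with 1448 and 1360 without IL-1β replicates 1 and 3 and 1436 without PBSL replicate 2. In PBSL plus IL-1β against untreated cells, the 8 called members became 5 with a filter on the mean over 9 libraries. That filter left HAS3 and HYAL1 untested, and HYAL2 was no longer called (limma adjusted p = 0.0502). The cause of the other changes was not tested. Same-numbered libraries did not deviate together (r from -0.225 to 0.0681 over 9 pairs, with 5 of 18 best matches to the own number). With 3 libraries per group these correlations cannot exclude a weak shared deviation, so whether the numbers pair libraries remains unknown. With a replicate block 2131 genes were called in PBSL plus IL-1β against IL-1β, beside 2684 without it. The counts were 3479 beside 3831 in IL-1β against untreated and 4535 beside 4965 in PBSL plus IL-1β against untreated. The block lost the VCAN call with PBSL (adjusted p = 0.0751) and the HYAL2 call against untreated cells (adjusted p = 0.0663). HAS1 lies at or near 0 and HAS3 and HYAL1 around the filter value of 1, and the reads behind these values are unknown.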

Other observations

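Genes that work beside CD44 changed in both directions with IL-1β. Of 10 tested CD44 partners and sheddases among 13 listed, 4 rose and 3 fell in IL-1β against untreated cells, beside 16.2% of all tested genes higher and 16% lower. MMP9, a gelatinase that docks on CD44, averaged 9.47 ± 0.923 with IL-1β and 1.48 ± 0.207 in untreated cells (SD, n = 3 each; limma adjusted p = 2.45e-06). MMP14, which sheds CD44, averaged 378 ± 2.02 with IL-1β and 270 ± 18.3 in untreated cells. EZR, or ezrin, which links CD44 to actin, fell to 31.5 ± 1.04 with IL-1β, against 50.9 ± 3.94 in untreated cells (adjusted p = 6.30e-06), and NF2, or merlin, to 10.8 ± 0.720 with IL-1β, against 15.7 ± 0.434 in untreated cells. With PBSL, MMP9 averaged 15.1 ± 5.03, against 9.47 ± 0.923 with IL-1β (adjusted p = 0.0322), and CD74, a partner of CD44, 2.43 ± 0.534, against 3.97 ± 1.01 with IL-1β (adjusted p = 0.0434); the calls were lost in 7 and 9 of 20 alternatives, with adjusted p up to 0.11 and 0.161.

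Genes that build the chondroitin sulfate chains of versican and aggrecan, or cut versican, were listed together. Of 19 tested among 23, 7 rose and 1 fell with IL-1β, beside the same 16.2% and 16% of all tested genes. CSGALNACT1, which starts the chains, averaged 5.87 ± 0.491 with IL-1β and 2.51 ± 0.105 in untreated cells. CHST11, a sulfotransferase, averaged 15.6 ± 0.563 with IL-1β and 9.11 ± 0.0946 in untreated cells, and DSE, an epimerase, 28.5 ± 0.966 with IL-1β and 17.8 ± 0.0788 in untreated cells. The versican-cleaving protease ADAMTS9 averaged 1.71 ± 0.0236 with IL-1β and 0.42 ± 0.0642 in untreated cells and passed the filter only through the libraries given IL-1β, while ADAMTS15, named after its values were seen, fell to 1.92 ± 0.0617 with IL-1β, against 3.31 ± 0.0378 in untreated cells. With PBSL none of the 19 rose and 4 fell by limma at an adjusted p under 0.05, a share called close to the 22.5% of all tested genes, of which 11.5% were higher and 11% lower. CSGALNACT1 averaged 4.15 ± 0.485 with PBSL plus IL-1β and 5.87 ± 0.491 with IL-1β (adjusted p = 0.00702), and CHST15, a sulfotransferase, 2.97 ± 0.171 with PBSL plus IL-1β and 4.25 ± 0.530 with IL-1β (adjusted p = 0.0123). The polymerization factor CHPF averaged 73.7 ± 10.9 with PBSL plus IL-1β and 92.6 ± 3.27 with IL-1β. Its relative CHPF2 averaged 65.99 ± 6.59 with PBSL plus IL-1β and 78.4 ± 2.45 with IL-1β. The CSGALNACT1 call held in all alternatives, and those of the other 3 were lost without 1 or 2 of the IL-1β libraries (adjusted p up to 0.0571 for CHST15, 0.073 for CHPF and 0.0802 for CHPF2).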
